A study of Chlamydomonas reinhardtii with 25 samples.

Results

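Photosystem I of Chlamydomonas reinhardtii, a unicellular green alga, contains several small core subunits that are encoded in the nucleus, and the transcript counts of their genes are described here across exposures to rare earth elements. The genes were chosen by identity and not by a cut on any measured value, though earlier results of these data were known. They are the rows whose gene ID stood on a list of 8 IDs: PSAE (Cre10g420350), PSAF (Cre09g412100), PSAG (Cre12g560950), PSAH (Cre07g330250), PSAK (Cre17g724300), PSAL (Cre12g486300), PSAN (Cre02g082500) and PSAO (Cre07g334550). Of the 8 IDs, 6 had a row among the 19526 transcripts of the table, 1 row each, and all 6 had enough counts to be tested. PSAK and PSAO had no row in the table used here and were not analysed here. The subunit names are those of the list: neither the table nor the reference used here gives these IDs a symbol.

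Photosystem I is a pigment-protein complex of the thylakoid membrane that uses light to move electrons from plastocyanin or cytochrome c6, in the thylakoid lumen, to ferredoxin, in the stroma. Its large reaction-centre proteins are encoded in the chloroplast. Several of the small subunits around them are encoded in the nucleus, translated in the cytosol and imported. PSAE lies on the stromal face and takes part in docking ferredoxin. PSAF reaches the lumen and binds plastocyanin and cytochrome c6, and PSAN is a lumenal subunit next to it. PSAG and PSAK lie in the membrane beside the light-harvesting antenna of photosystem I, while PSAH, PSAL and PSAO lie on the side where, in plants, antenna proteins of photosystem II dock during state transitions.

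Cells of the wild-type strain CC-125, grown in a diluted acetate medium (TAP) under 12 h of light per day at 20 °C to mid-exponential phase, were washed and exposed for 2 h at 0.5 µM to cerium (Ce), a light rare earth element, to thulium (Tm), a heavy one, to yttrium (Y), usually grouped with the heavy ones, or to an equimolar mixture of the 3 (Mix), and Control cells received no metal. The exposure medium of all 5 groups, buffered at pH 7.0, held 10.0 mM NaHEPES and 10.0 µM calcium nitrate, and 1 strain, 1 exposure time and 1 concentration were used. The labels do not say whether 0.5 µM in Mix is the sum of the metals or the level of each. Each group was represented by 5 libraries of polyadenylated RNA, 25 in all. The labels do not say whether these came from separate cultures, so the p-values measure the spread between libraries.

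The smallest library, Tm library 2, held about 12921000 counts and the largest, Control library 2, about 28974000, and each of the 6 genes had between 4681 and 61334 counts in every library, so counting error was small beside the spread between libraries. Levels are given as CPM, counts relative to the library total after TMM scaling, which compares libraries over the bulk of the genes. The TMM factors were 1.43 ± 0.029 in Ce and 0.86 ± 0.18 in Control libraries (SD, n = 5 each), and the group means of Tm, Y and Mix lay between 0.92 and 0.96. Control library 1 lay apart from the other Control libraries, with a factor of 1.16 against 0.69 to 0.89. Leaving it out changed none of the calls of the 6 genes in the 4 comparisons with Control. CPM are relative levels: fewer cells and less RNA per cell cannot be told apart in such data. Differences are log2 fold changes from a fit over all 12796 rows tested, with a standard error derived from the test statistic. A gene is called where its edgeR adjusted p, over all those rows, is under 0.05. No transcript lengths were at hand, so levels are compared between groups and not between genes.

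PSAE, the stromal subunit at the ferredoxin side, was higher in all 4 exposures than in Control and was highest in Y. PSAE stood at 698, 633, 631, 598 and 628 CPM in the 5 Ce libraries and at 949.8, 875, 841, 924 and 983 CPM in the 5 Tm libraries. In the Y libraries it had 1191, 1182, 1222, 1113 and 1188 CPM. Mix libraries had 841, 756, 719.8, 831 and 816 CPM, against 492, 497, 456, 499 and 550.1 CPM in Control libraries. Every library of each exposure lay above every Control library, and the Y libraries lay above all the others. PSAE averaged 1179 ± 40.1 CPM in Y and 499 ± 33.5 CPM in Control (SD, n = 5 each), a log2 fold change of 1.24 ± 0.077 and a 2.36-fold higher level (edgeR adjusted p = 1.50e-14). In Ce, which had the smallest of its 4 changes, the difference from Control was 0.35 ± 0.076 (edgeR adjusted p = 0.000114). By group mean the order was Y, Tm, Mix, Ce and Control, and of the neighbours in this order only Tm and Mix did not differ at the threshold.

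PSAF, the subunit at which plastocyanin and cytochrome c6 dock, was the only one of the 6 called lower in Ce and higher in Tm, Y and Mix. PSAF stood at 1779.8, 1678, 1692, 1592 and 1738 CPM in the 5 Ce libraries and at 2654, 2517, 2445, 2702 and 2783 CPM in the 5 Tm libraries. In the Y libraries it had 2889, 2866, 2942, 2754 and 2953 CPM. Mix libraries had 2417, 2307, 2241, 2533 and 2487 CPM, against 1736, 2156, 2015, 2401 and 2132 CPM in Control libraries. The Ce libraries lay below every Tm, Y and Mix library and below Control libraries 2 to 5, while Control library 1 lay within the range of Ce. The mean was 1696 ± 70.8 CPM in Ce and 2088 ± 242 CPM in Control (SD, n = 5 each), so that PSAF fell by 0.30 ± 0.078 on the log2 scale in Ce (edgeR adjusted p = 0.000964). Without Control library 1 the change in Ce was -0.36 (edgeR adjusted p = 3.5e-06). With upper-quartile factors it was -0.11 and not called, and with library totals alone it was 0.45 and called higher, so the direction in Ce turns with the scaling. In the other exposures PSAF had the smallest rise of the 6 genes, with 0.33 ± 0.078 in Tm, 0.46 ± 0.078 in Y and 0.20 ± 0.078 in Mix. The call in Mix (edgeR adjusted p = 0.0252) was lost when only the Mix and Control libraries were fitted, at 0.16 with an edgeR adjusted p of 0.122 (range over 13 settings 7.42e-07 to 0.122). It was also lost without Control library 3 or without Mix library 4 when the TMM reference library was kept, with changes of 0.14 to 0.25 over such fits and an edgeR adjusted p of up to 0.0558. Where edgeR chose the TMM reference anew, the changes without 1 library reached 0.49 (edgeR adjusted p down to 7.94e-07).

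PSAN, the lumenal subunit beside PSAF, was called higher in all 4 exposures. PSAN stood at 725, 645, 639, 607 and 595 CPM in the 5 Ce libraries and at 925, 824, 833, 929 and 745 CPM in the 5 Tm libraries. In the Y libraries it had 1062, 1056, 1089.7, 1005 and 919.6 CPM. Mix libraries had 828, 733, 751, 827 and 658 CPM, against 546, 515, 485, 482 and 490.2 CPM in Control libraries. As for PSAE, every library of each exposure lay above every Control library. The mean in Y was 1026 ± 67.1 CPM and that in Control 503 ± 27.1 CPM (SD, n = 5 each), a log2 fold change of 1.03 ± 0.086 or 2.04-fold (edgeR adjusted p = 1.10e-11). PSAE and PSAN were the 2 genes more than 2-fold above Control in this fit, both in Y. Over 13 settings the log2 fold change in Y ran from 0.97 to 1.18 for PSAN, from 0.93 to 1.16 for PSAG and from 0.80 to 1.03 for PSAH. Which genes pass 2-fold thus depends on the settings. In Ce the change of PSAN was 0.35 ± 0.085, close to that of PSAE. Both genes stayed called higher in Ce under each of 13 settings of scaling, filter, tool and model. In this fit 44.9% of all rows tested were also called higher in Ce. PSAE and PSAN each lay 0.13 above the median change of all rows.

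PSAG, the membrane subunit beside the photosystem I antenna, was higher in Tm, Y and Mix and not called in Ce. PSAG stood at 434, 393, 381, 362 and 409.9 CPM in the 5 Ce libraries and at 703, 644, 622, 696 and 825 CPM in the 5 Tm libraries. In the Y libraries it had 841, 846, 868, 791 and 903 CPM. Mix libraries had 603, 582, 550.3, 684 and 705 CPM, against 371, 427, 370.1, 489 and 490.3 CPM in Control libraries. The Ce and Control libraries overlapped, and all Tm, Y and Mix libraries lay above both. Against Control it rose by 0.70 ± 0.099 in Tm and by 0.98 ± 0.099 in Y, and Mix gave 0.54 ± 0.098. In Ce the difference was -0.12 ± 0.098 with a 95% interval of -0.32 to 0.087 (edgeR adjusted p = 0.269), and it was 0.63 and called higher with library totals alone.

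PSAH and PSAL lie next to each other at the edge of the complex where antenna proteins dock in plants, and both were called higher in Tm, Y and Mix. PSAH stood at 783, 697, 692, 672 and 690.3 CPM in the 5 Ce libraries and at 1112, 1005, 953, 1072 and 1127 CPM in the 5 Tm libraries. In the Y libraries it had 1328, 1333, 1339, 1209 and 1322 CPM. Mix libraries had 961, 863, 809, 970.5 and 969 CPM of PSAH, against 661, 728, 649, 789 and 781 CPM in Control libraries. Ce and Control overlapped for PSAH, with a difference of -0.030 ± 0.081 and a 95% interval of -0.20 to 0.14 (edgeR adjusted p = 0.740), while every Tm, Y and Mix library lay above every Control library. With library totals alone PSAH was called higher in Ce, at 0.71. PSAL stood at 1052, 948, 965, 873 and 989.9 CPM in the 5 Ce libraries and at 1277, 1113, 1099, 1186 and 1232 CPM in the 5 Tm libraries. In the Y libraries it had 1473, 1428, 1383, 1361 and 1417 CPM. Mix libraries had 1141, 1026, 988, 1125 and 1097 CPM of PSAL, against 885, 827, 755, 813 and 927 CPM in Control libraries. The Tm, Y and Mix libraries lay above all Control libraries for PSAL as well, and those of Ce overlapped with Control.

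The change of PSAL in Ce was 0.20 ± 0.077 (edgeR adjusted p = 0.0201), a call that depended on the settings. Over 13 settings with all libraries its edgeR, DESeq2 or limma adjusted p ran from 2.53e-08 to 0.217 and 9 of the 13 called it, with a positive change in each. It was also lost without Ce library 1, without Control library 3 and, where edgeR chose the TMM reference anew, without Control library 2, with changes of 0.15 to 0.26 over the fits that left out 1 library.

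**Figure D1:**
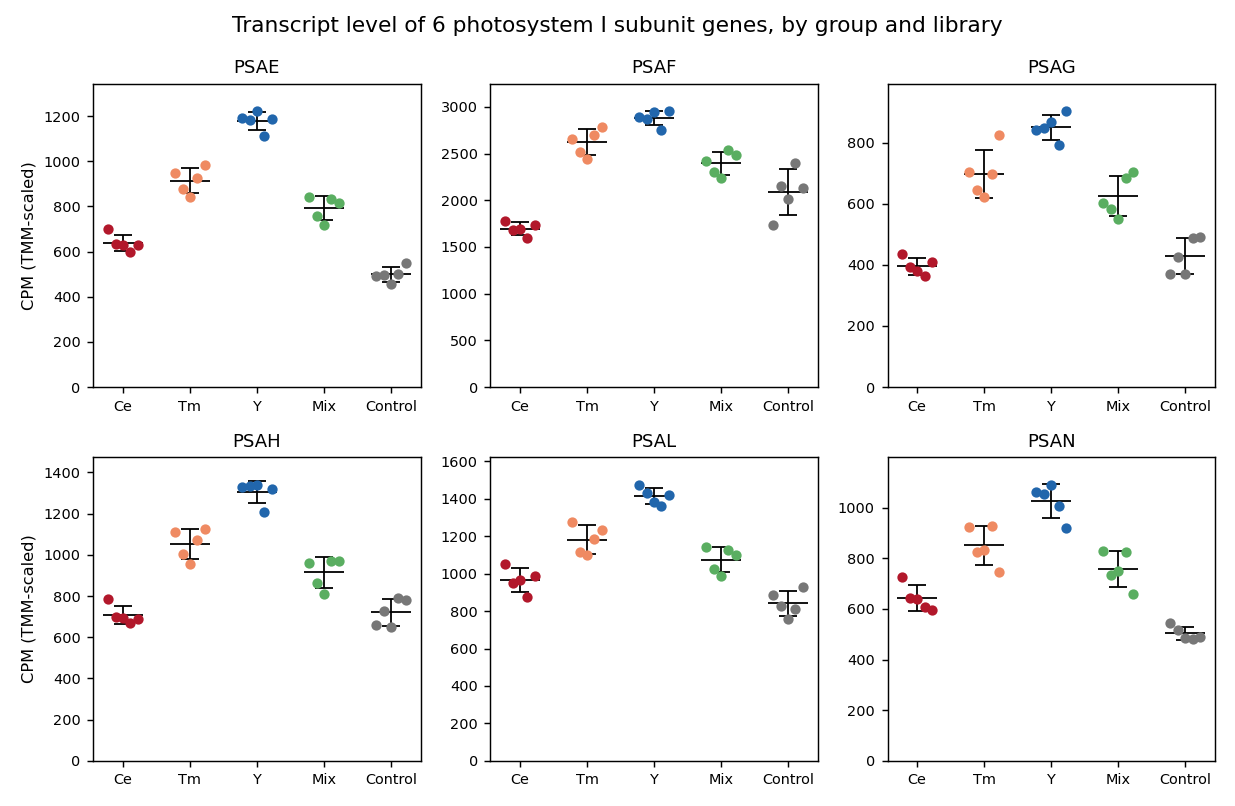
TMM-scaled CPM of PSAE, PSAF, PSAG, PSAH, PSAL and PSAN (vertical axes, each from 0) in Ce, Tm, Y, Mix and Control. Points are libraries 1 to 5 from left to right, the long bar is the mean and the whiskers are 1 SD (n = 5). By mean, Y is highest in all 6 panels, followed by Tm and then Mix, and 4 of the 5 Control libraries of PSAF lie above its Ce libraries.

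Set against Control, the 6 genes were called higher together in 3 of the 4 exposures. The 4 comparisons share their Control libraries and are given side by side. In Tm all 6 were higher, by 0.33 (PSAF) to 0.87 (PSAE), where 32.2% of all rows tested were called higher and 37.7% lower. In Y all 6 were higher, by 0.46 (PSAF) to 1.24 (PSAE), where 35.9% of rows were called higher and 36.7% lower. In Mix all 6 were higher, by 0.20 (PSAF) to 0.67 (PSAE), beside 30.9% of rows called higher and 37.5% lower. The libraries did not overlap with Control for any of the 6 genes in Tm and Y, nor for 5 of the 6 in Mix, PSAF being the exception. The share of all rows without overlap was not counted, so this is not shown to be particular to the 6 genes. The size of these changes depended on the TMM reference library, which is Tm library 2 for all 25 libraries. When any Tm, Y or Mix library or Control library 2, 3 or 5 was left out, edgeR took Control library 1 instead. In these 18 fits PSAF (0.42 to 0.49), PSAH (0.55 to 0.65) and PSAL (0.55 to 0.65) in Mix and PSAF in Tm (0.52 to 0.57) rose by over 1.5 times as much. So did PSAG in Mix in 4 of them (up to 0.87) and PSAL in Tm in 1, without Control library 5 (0.75). Of 51 called differences over the comparisons of 2 groups and of Mix with the mean of the metals, 23 moved by over 1.5 times in at least 1 of these 18 fits, and 0 did in the fits that kept Tm library 2 as the reference.

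In Ce the genes split: PSAE, PSAN and PSAL were called higher, PSAF lower, and PSAG and PSAH were not called. Among all rows tested 44.9% were called higher in Ce and 36.2% lower, so 3 of 6 called higher is near the background. Any difference between the 5 groups was called for all 6 genes, as it was for 96.1% of all rows.

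**Figure D2:**
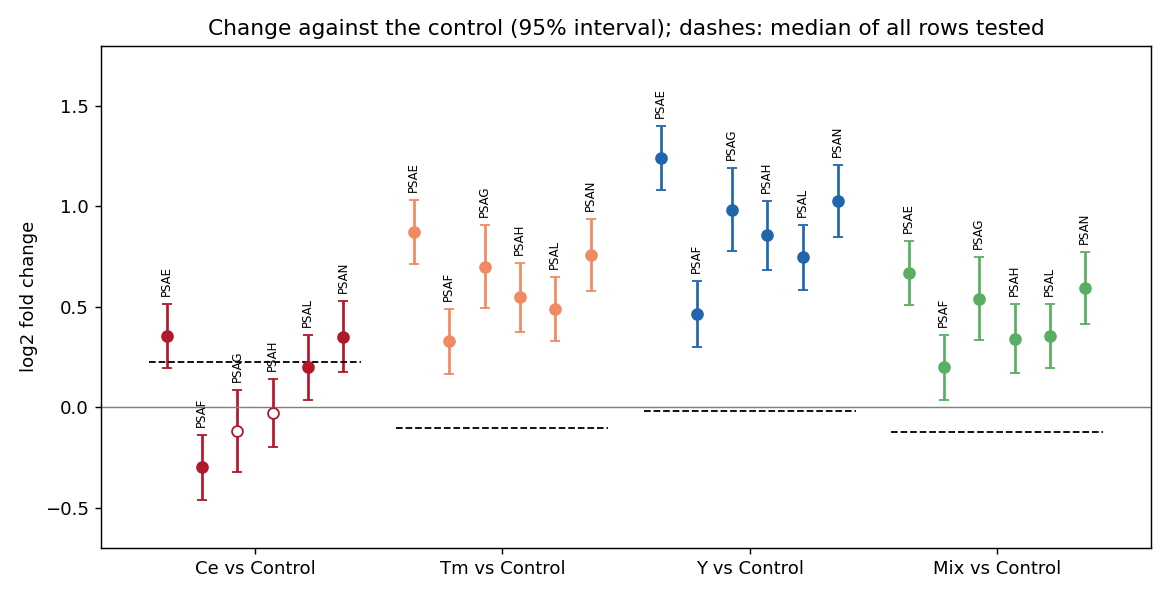
Log2 fold change of each gene against Control (vertical axis) in Ce, Tm, Y and Mix, with 95% intervals. Filled points were called at an edgeR adjusted p under 0.05, open points were not, and the dashed line is the median over the 12796 rows tested. In Tm, Y and Mix all 6 points lie above 0 and above that line, while in Ce they lie on both sides of 0.

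The median change of the 6 genes was 0.62 in Tm, where that of all rows was -0.10. In Y the median of the 6 genes was 0.92 and that of all rows -0.020, and in Mix these 2 medians were 0.45 and -0.13. In Ce the median of the 6 genes was 0.084 and that of all rows 0.22. The scaling sets where 0 lies: over 5 scalings the median of all rows in Ce ran from 0.14 to 0.95, the highest with library totals alone. The distance of the 6 genes from that median moved little, as it stayed at -0.14 in Ce and ran from 0.72 to 0.74 in Tm, from 0.94 to 0.95 in Y and from 0.57 to 0.59 in Mix. A scaling shifts all rows nearly alike, so the 5 scalings could hardly move this distance and do not test it. With TMM the 6 genes lay above the median of all rows in Tm, Y and Mix and slightly below it in Ce. Dropping the filter on low counts changes the rows that set the median. The distance for Ce then shrank to -0.045. For Mix it was 0.55, against 0.93 for Y and 0.71 for Tm. In Ce the single genes relative to the median of all rows were 0.13 for PSAE, 0.13 for PSAN, -0.025 for PSAL, -0.25 for PSAH, -0.34 for PSAG and -0.52 for PSAF. With library totals alone the raw changes in Ce were all positive and all 6 genes were called higher, when 75.1% of the calls over all rows were higher, against 55.3% with TMM. In Mix against Control 45.1% of the calls were higher, against 56.3% with Control library 1 as the TMM reference.

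**Figure D3:**
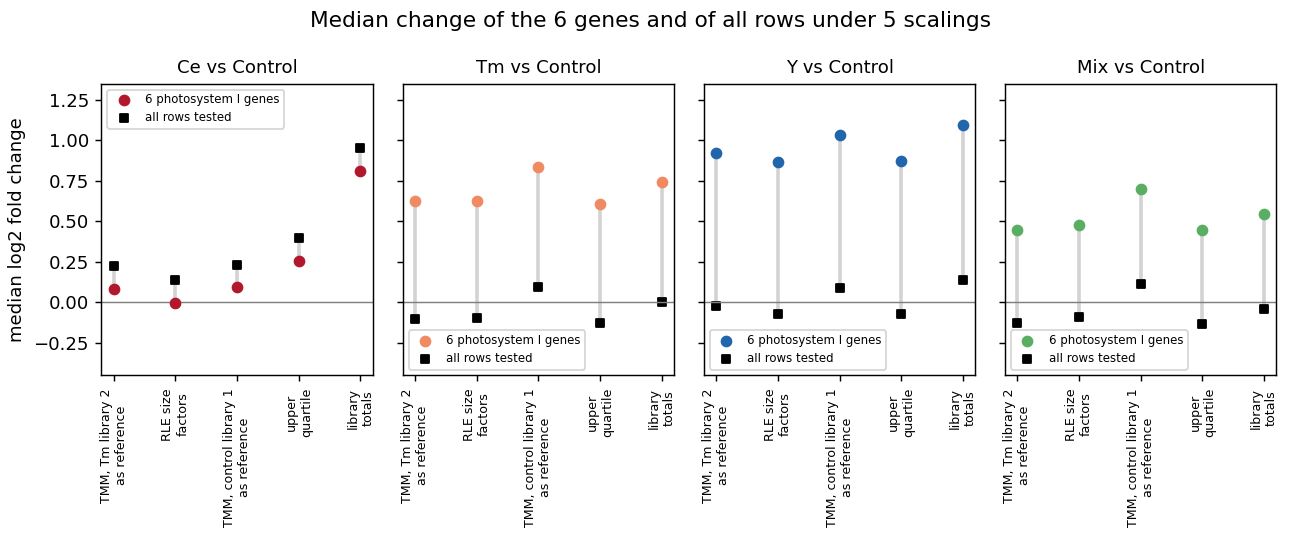
Median log2 fold change against Control of the 6 genes (circles) and of all rows tested (squares) under 5 scalings, for Ce, Tm, Y and Mix. Grey lines join the 2 medians. A scaling shifts all rows nearly alike, so the length of these lines can hardly change. Both medians shift together, most of all in Ce with library totals alone.

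Between single metals, the 6 genes were by mean TMM-scaled level lowest in Ce and highest in Y. In Ce against Tm all 6 were called lower, with changes of -0.82 (PSAG) to -0.29 (PSAL), where 42.4% of rows were called higher and 34.2% lower. PSAG averaged 396 ± 27.7 CPM in Ce and 698 ± 78.6 CPM in Tm (SD, n = 5 each). In Ce against Y all 6 were lower too, with changes of -1.10 (PSAG) to -0.55 (PSAL), beside 39.6% of rows called higher and 34.2% lower. PSAG in Ce was at 0.466 times its level in Y (edgeR adjusted p = 2.08e-10). With upper-quartile factors PSAL was at -0.097 in Ce against Tm and not called (edgeR adjusted p = 0.304). In the 18 fits with Control library 1 as the TMM reference PSAL was at -0.52 to -0.47 against Tm, and PSAN reached -0.65. The directions hold for TMM: with library totals alone 0 genes were lower and 1, PSAL, was higher in Ce than in Tm, while 4 of 6 were lower in Ce than in Y. Over all rows the calls were then higher in Ce for 76.1% in place of 55.3% against Tm, and for 75.4% in place of 53.7% against Y. Relative to the median of all rows the 6 genes lay at -0.73 in Ce against Tm and at -0.93 in Ce against Y. The 5 scalings could hardly move these distances.

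Tm and Y differed less. In Tm against Y 5 of 6 genes were called lower, with changes of -0.37 (PSAE) to -0.26 (PSAL), where 9.75% of rows were called higher and 11% lower. PSAE averaged 915 ± 57.0 CPM in Tm and 1179 ± 40.1 CPM in Y (SD, n = 5 each), with an edgeR adjusted p of 0.00109 and no overlap between the libraries. PSAF was not called, at -0.14 ± 0.078 with a 95% interval of -0.30 to 0.026 (edgeR adjusted p = 0.217). The count of 5 was not stable: it was 1 with RLE size factors or with Control library 1 as the TMM reference, 2 with upper-quartile factors, and between 2 and 5 when single libraries were left out with the TMM reference kept. In those fits PSAG lost its call without Tm library 1, 3 or 4 or without Y library 1, 2, 3 or 5, PSAN without Tm library 3 or 5 or without Y library 1, 2 or 3, and PSAL without Tm library 3. Over all rows 46.9% of the calls were higher in Tm, while upper-quartile factors gave 59.9% and TMM referenced to Control library 1 gave 70.4%. In the 18 fits with that reference that left out 1 library, PSAG (-0.26 to -0.15), PSAL (-0.19 to -0.13), PSAN (-0.21 to -0.13), PSAH (-0.24 to -0.18) and PSAE (-0.30 to -0.24) differed by less. PSAE was called under all 13 settings, and every one of the 6 genes had a negative difference in each of them.

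In the mixture the 6 genes lay by mean TMM-scaled level above Ce and below Tm and Y. In Mix against Ce 5 of 6 were called higher, by 0.24 (PSAN) to 0.66 (PSAG), where 33.9% of rows were called higher and 44.9% lower. PSAL was not called, at 0.16 ± 0.077 with a 95% interval of -0.0055 to 0.32 (edgeR adjusted p = 0.0667), and over 13 settings it was called higher in 7 and lower in 1, library totals alone, with adjusted p from 0.00013 to 0.825. In the 18 fits without 1 library that used Control library 1 as the TMM reference, the changes of PSAE (0.52 to 0.60), PSAH (0.58 to 0.66) and PSAN (0.44 to 0.53) were over 1.5 times as large, and so was that of PSAF in 3 of them (up to 0.77). With library totals alone the direction turned and 5 of 6 were lower in Mix than in Ce, when 23.9% in place of 43.0% of the calls over all rows were higher in Mix. Relative to the median of all rows the 6 genes lay 0.56 to 0.57 higher in Mix than in Ce under the 5 scalings, which could hardly move this distance.

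Against Tm, 0 of 6 genes were called in Mix, where 0.195% of rows were called higher and 0.977% lower. Differences ran from -0.21 (PSAE, 95% interval -0.36 to -0.049, edgeR adjusted p = 0.280) to -0.13 (PSAF, 95% interval -0.29 to 0.034). By edgeR's unadjusted p, 2 of the 6 were under 0.05, PSAE at 0.0107 and PSAH at 0.018, and 0 were called under each of the 13 settings, DESeq2 and limma among them. Over all rows 16.7% of the calls were higher in Mix, while upper-quartile factors gave 26.8% and TMM referenced to Control library 1 gave 33.8%. All 6 point estimates were negative and the libraries of the 2 groups overlapped for each gene. The unadjusted 95% intervals of PSAE and PSAH (-0.37 to -0.035) lay below 0, and those of the other genes reached above 0. That no gene was called after adjustment over all rows does not show that differences are absent.

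In Mix against Y all 6 genes were called lower, with changes of -0.57 (PSAE) to -0.26 (PSAF), where 16.3% of rows were called higher and 19.2% lower. PSAE averaged 793 ± 52.6 CPM in Mix and 1179 ± 40.1 CPM in Y (SD, n = 5 each, edgeR adjusted p = 1.54e-06). PSAF lost its call under 4 of 13 settings. Over all rows 45.9% of the calls were higher in Mix, while RLE factors gave 56.8%, upper-quartile factors 56.9% and TMM referenced to Control library 1 gave 67.4%. Leaving out 1 library left between 3 and 6 called, with 3 without Mix library 3. PSAF lost its call in 18 of 25 such fits, those with Control library 1 as the TMM reference, where it was at -0.16 to -0.097. In the same fits PSAL was at -0.29 to -0.22, PSAN at -0.35 to -0.25, PSAG at -0.36 to -0.25 and PSAH at -0.42 to -0.33. All 6 stayed called in each of the 24 fits that kept Tm library 2.

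Against the mean of the 3 single metals, 1 of 6 genes was called lower in Mix, PSAE at -0.15 ± 0.062 (edgeR adjusted p = 0.0369), and 0 were called higher, beside 25.2% of rows called higher and 28.7% lower. The other 5 lay between -0.12 (PSAL) and 0.035 (PSAF). Relative to the median of all rows the 6 genes were at -0.012 to -0.0092 under the 5 scalings, which could hardly move this distance. Over all rows 46.8% of the calls were higher in Mix, while library totals gave 26.9% and TMM referenced to Control library 1 gave 64.2%. PSAF was called higher with Control library 1 as the TMM reference, at 0.18 (edgeR adjusted p = 0.008), and in 18 of 25 fits without 1 library, at up to 0.21, but in 0 of the 24 such fits that kept Tm library 2. With library totals alone it was lower. The count of 1 ran from 0 to 6 over the settings and the call of PSAE was made under 8 of 13, so no gene is singled out here.

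Summed over the 6 genes, the level was 5044 ± 276 CPM in Ce, 7319 ± 406 CPM in Tm, 8655 ± 243 CPM in Y, 6564 ± 384 CPM in Mix and 5083 ± 360 CPM in Control (SD, n = 5 each). As a share of all counts, with no scaling, the sum was 0.720 ± 0.0331% in Ce, 0.681 ± 0.0325% in Tm, 0.834 ± 0.0229% in Y, 0.604 ± 0.0385% in Mix and 0.435 ± 0.0742% in Control. Y was highest on both scales. Ce stood level with Control on the TMM scale and above Tm, Mix and Control in the share of all counts, and the TMM factors of all 5 Ce libraries lay above those of the other 20 libraries. By mean TMM-scaled level each gene followed the order Y, Tm and Mix. Below these came Ce and then Control for PSAE, PSAL and PSAN, and Control and then Ce for PSAF, PSAG and PSAH. Tm and Mix did not differ at the threshold for any gene, nor did Mix and Ce for PSAL, Y and Tm for PSAF, or Control and Ce for PSAG and PSAH.

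The make-up of the sum does not depend on the scaling of libraries, because each gene is set against the other 5 in the same library. PSAE held 12.4% to 12.8% of the 6 genes' counts in Ce, 12.3% to 12.8% in Tm, 13.5% to 13.8% in Y and 11.9% to 12.4% in Mix, against 9.12% to 10.5% in Control. All 20 exposed libraries lay above all 5 Control libraries, and those of Y lay above the rest. PSAF showed the reverse, with 32.5% to 34.4% in Ce, 34.8% to 36.2% in Tm, 32.9% to 33.9% in Y and 35.6% to 37.0% in Mix, against 37.0% to 43.9% in Control. Every exposed library lay below every Control library, by a narrow margin between Mix and Control library 1. Shares of 1 sum are tied to each other, so a higher share of one gene lowers those of the rest.

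The shares of PSAL and PSAG differed between Ce and the other exposures. PSAL held 18.6% to 19.6% of the counts in the Ce libraries, against 15.8% to 16.8% in Tm, 15.6% to 16.8% in Y, 16.1% to 16.8% in Mix and 14.9% to 18.9% in Control, so that Ce overlapped only with Control library 1, which held 18.9%. PSAG held 7.61% to 8.12% in Ce, below the lowest library of Tm (9.16%), Y (9.57%) and Mix (8.88%), and overlapped with Control, at 7.82% to 9.13%. PSAH stayed between 13.4% and 15.3% in all 25 libraries. PSAN averaged 12.7 ± 0.554% in Ce, and 11.7 ± 1.12% in Tm, 11.9 ± 0.729% in Y and 11.6 ± 1.05% in the mixture, against 9.96 ± 1.11% in Control (SD, n = 5 each). These shares were not tested.

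**Figure D4:**
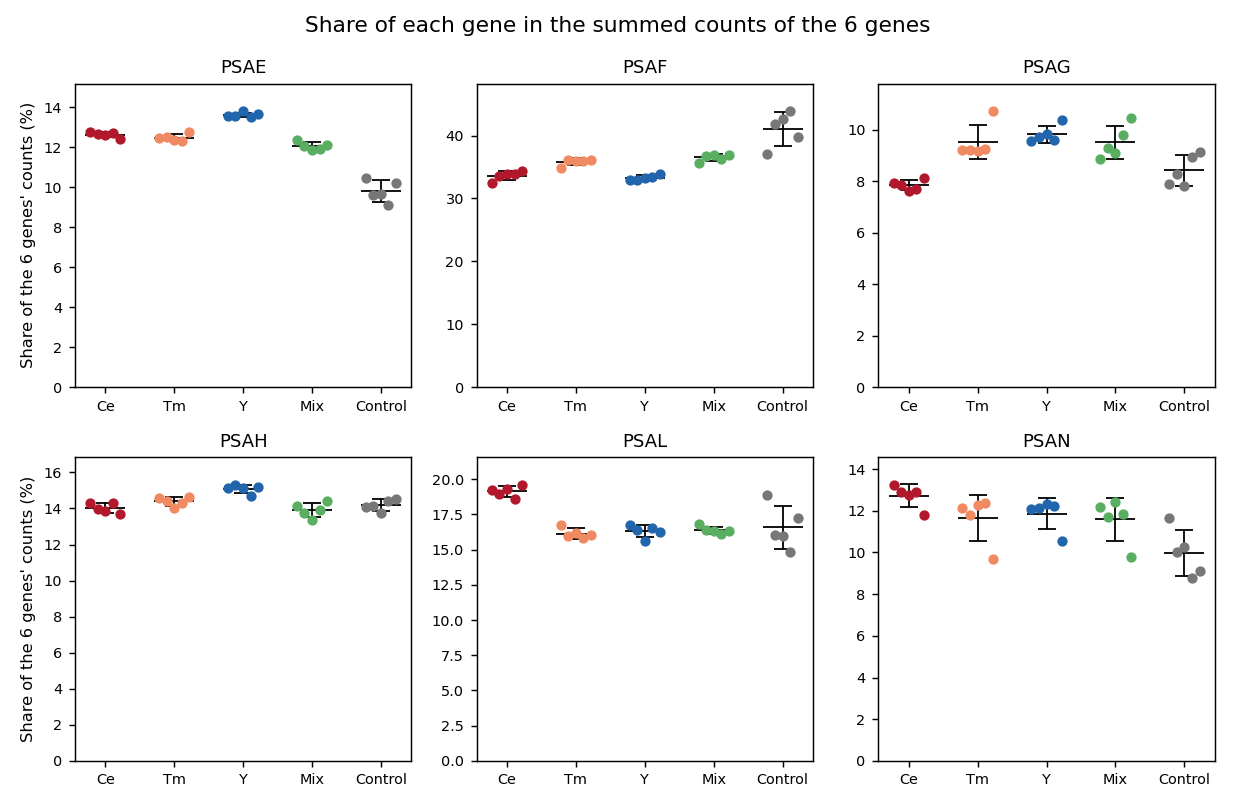
Share of each gene in the summed counts of the 6 genes (vertical axes, in %, each from 0) in Ce, Tm, Y, Mix and Control. Points are libraries 1 to 5 from left to right, with the mean and 1 SD (n = 5). The PSAE share is higher and the PSAF share lower in all exposed libraries than in Control, and the mean PSAL share is highest in Ce.

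Across the 25 libraries the log2 CPM of the 6 genes moved together, with Pearson's r of 0.70 (PSAF and PSAN) to 0.98 (PSAE and PSAL) over the 15 pairs. These points share libraries, scaling and group differences and are given as a description. Once each group's mean was taken away, the 10 pairs without PSAN still had r of 0.31 to 0.91, whereas the 5 pairs with PSAN had r of -0.21 to 0.35. PSAN was lowest in library 5 of Ce, Tm, Y and Mix, at 595, 745, 919.6 and 658 CPM, and among Control libraries it was lowest in library 4, at 482 CPM. PSAG, in contrast, was highest in library 5 of Tm, Y and Mix, at 825, 903 and 705 CPM, and of Control, at 490.3 CPM, and stood second in Ce library 5, at 409.9 CPM. The labels do not say what a library number stands for.

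**Figure D5:**
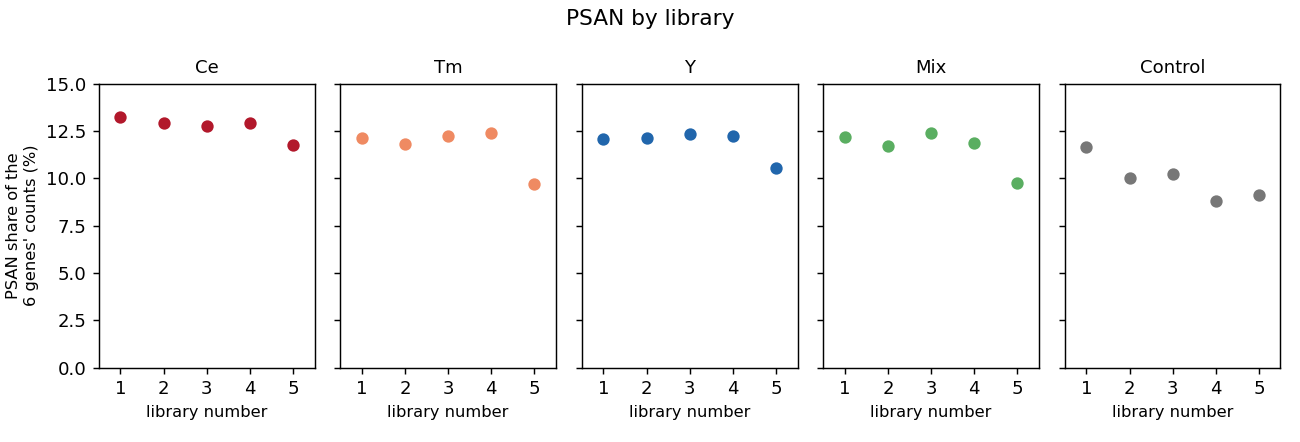
Share of PSAN in the summed counts of the 6 genes (vertical axis, in %, from 0) by library number in Ce, Tm, Y, Mix and Control. Library 5 has the lowest share in each of the 4 exposures, and library 4 has it in Control.

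The rows most like the mean profile of the 6 genes over the 25 libraries, outside the 6, were Cre10g452050 (r = 0.99), Cre03g165100 (0.98), Cre17g715500 (0.98), g3784 (0.97) and g9830 (0.97), by Pearson's r of log2 CPM. Among all rows PSAH ranked 1, PSAE 5, PSAG 8, PSAL 14, PSAN 55 and PSAF 143 in likeness to that profile, to which each contributes. After the group means were taken away, Cre07g344950 (0.89), g9830 (0.88), Cre16g6736501 (0.88), Cre10g452050 (0.88) and Cre03g165100 (0.83) were the most alike, and PSAN ranked 1491. Thus g9830, Cre10g452050 and Cre03g165100 were among the 5 on both measures. Cre10g452050 and Cre07g344950 also stand on the list of photosystem I antenna IDs used below, so they enter both descriptions.

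Other nuclear genes of the photosynthetic electron chain were set beside the 6 as lists of IDs: the photosystem I subunit PSAD, the photosystem I antenna, electron carriers, and subunits of photosystem II, the cytochrome b6f complex and ATP synthase. The table and the reference do not annotate these IDs, and their assignment rests on general knowledge of the organism. They are therefore given by list, as counts with medians or the lowest and highest change. The lists were written with earlier results of these data known. Of 24 IDs listed, 14 had a row and were tested, and PSAD had none. All 14 were called higher in Tm (median 0.79), in Y (0.90) and in Mix (0.62), while in Ce 5 were higher, 5 lower and 4 not called (median 0.11). Beside these stand 32.2% of all rows called higher in Tm, 35.9% in Y and 30.9% in Mix. Against Control 44.9% of rows were higher in Ce and 36.2% lower, so the counts of the 14 are near that background. With library totals alone 13 of the 14 were higher in Ce and 0 lower. Of all 12796 rows 10838 were then called, 75.1% of them higher. For the 6 antenna IDs with a row out of 9 listed, 6 were higher in Tm, Y and Mix alike, and in Ce 1 was higher, 2 lower and 3 not called. The 2 tested IDs of ATP synthase were both lower in Ce (median -0.45) and both higher in Tm, Y and Mix, the 2 of photosystem II were higher in all 4 exposures, and the 2 of the cytochrome b6f complex were higher in Tm, Y and Mix and in Ce 1 was higher and 1 not called. The 2 electron carriers went apart in Ce, with 1 lower at -0.51 and 1 higher at 3.25. Both were higher in Tm (0.50 and 1.82), Y (0.50 and 1.66) and Mix (0.50 and 3.09). In Ce against Tm 12 of the 14 were lower and 1 higher, and in Ce against Y 13 were lower and 1 higher, where 34.2% of rows were lower and 42.4% higher against Tm, and 34.2% lower and 39.6% higher against Y. With library totals alone 4 were lower and 2 higher in Ce against Tm, and 10 lower and 1 higher against Y. Over all rows 10331 were then called against Tm, 76.1% of them higher in Ce, and 9889 against Y, 75.4% of them higher.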

How the data were processed

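The authors deposited whole-number read counts per annotated transcript, 1 column per library and not normalised, and all 25 columns were used. The tools named, per the submitters' processing notes, are TopHat2 2.0.14, SAMtools 1.2 and Trim Galore 0.3.7. Neither the build nor the annotation release, nor how reads were counted and whether by strand, is given in the sources used here, so reads of overlapping, antisense or near-identical genes cannot be told apart. In 34 cells, 0 of them in the genes described, the text "PAC:" stood in the number and was removed. No libraries of a group agreed within sampling noise (lowest chi-square per degree of freedom 6.01).

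From these counts, edgeR 4.0.16 (R 4.3.3; filterByExpr, TMM, robust quasi-likelihood test) was fitted to all libraries with 1 coefficient per group and Benjamini-Hochberg adjustment over all 12796 rows tested. The labels name no batch. Each standard error is the size of the log2 fold change divided by the square root of its quasi-likelihood F. The 95% intervals were made from it with the residual degrees of freedom alone and are not adjusted. For correlations, log2 CPM used a prior count of 2. All listed genes are named, and besides them the 5 rows most like their mean profile. The genes, lists and settings were chosen with earlier results of these data known.

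Alternatives were library totals, RLE and upper-quartile factors, another TMM reference, no filter, DESeq2 1.42.0, limma 3.58.1 with voom, a replicate block, only the groups compared, rows with altered cells left out, rows of an ID summed, and each library left out. Keeping Tm library 2 as the TMM reference when libraries or altered rows were left out was added after seeing the data, as were library totals for the lists of other photosynthesis IDs. The scripts were tested on simulated data, where DESeq2 made more false calls than edgeR or limma. Same-numbered libraries deviated together (correlations above 0.1 in all 5 pairs) for Ce with Y (0.111 to 0.188) and Tm with Mix (0.193 to 0.440). There the numbers were taken to pair the libraries, on these data alone, and a block changed no call of the 6 genes in either comparison.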

Additional observations from a re-analysis of the deposited data

Results flagged for a closer look

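Of 60 sets of 5 libraries (the CPM and the share of each of the 6 genes in each group), 7 held a library far from the other 4, where chance flags about 1 in 20 sets. For PSAN, library 5 had a low share of the 6 genes' counts in 3 groups: 9.69% in Tm, against 11.8% to 12.4% in the other Tm libraries, 10.6% in Y, against 12.1% to 12.3%, and 9.77% in Mix, against 11.7% to 12.4%. PSAG had a high share in Tm library 5, 10.7% against 9.16% to 9.27% in the others. The share of PSAF was low in Tm library 1, at 34.8% against 36.0% to 36.2%. PSAH had 783 CPM in Ce library 1, against 672 to 697 CPM in the other Ce libraries. In Y library 4 it had 1209 CPM, against 1322 to 1339 CPM. Shares within 1 library are tied to each other, and the 3 low PSAN shares carry the same library number, whose meaning the labels do not give.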

How the results depend on the processing

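The rise of the 6 genes in Tm, Y and Mix over Control kept its direction under all alternatives, and 6 of 6 stayed called in Tm and Y. With library totals alone Ce against Control had 6 higher and 0 lower (PSAF 0.45, PSAG 0.63, PSAH 0.71), Ce against Tm 1 higher and 0 lower (PSAE 0.097, PSAH 0.041, PSAL 0.33, PSAN 0.21), Ce against Y stayed lower for 4 genes, with PSAL at 0.017, and Mix against Ce had 0 higher and 5 lower (PSAE -0.32, PSAF -0.13, PSAH -0.26, PSAL -0.48, PSAN -0.39). Against the mean of the metals Mix then had 6 lower, with PSAF at -0.20 and PSAG at -0.22. Upper-quartile factors gave 0 lower in Ce against Control (PSAG 0.063, PSAH 0.15), 2 lower in Tm against Y, 3 higher in Mix against Ce (PSAL -0.021) and 2 lower in Mix against the mean (PSAF -0.0017, PSAG -0.019). RLE factors gave 1 lower in Tm against Y and 0 in Mix against the mean. Control library 1 as the TMM reference gave 1 lower in Tm against Y, and 1 higher and 0 lower in Mix against the mean (PSAH 0.026, PSAL 0.016, PSAN 0.021). Leaving out rows with altered cells, which also changed the TMM reference, gave 2 lower in Tm against Y, and 1 higher and 0 lower in Mix against the mean (PSAH 0.025, PSAL 0.016, PSAN 0.021). With Tm library 2 kept as the reference, no count moved. Mix against the mean had 0 lower with no filter and with DESeq2, and 2 lower with the replicate block and with limma.

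Leaving out 1 library gave 1 to 5 lower in Tm against Y and 3 to 6 in Mix against Y. In Mix against the mean it gave 0 to 2 higher and 0 to 2 lower, with PSAE from -0.18 to 0.024, PSAF from 0.016 to 0.21, PSAG from -0.027 to 0.21, PSAH from -0.14 to 0.071, PSAL from -0.15 to 0.050 and PSAN from -0.15 to 0.066. PSAH in Ce against Control ran from -0.069 to 0.031. In 18 of 25 such fits edgeR took Control library 1 as the reference. The causes of the other changes were not tested. The replicate block also called PSAL higher in Mix against Ce (edgeR adjusted p = 0.0324) and changed no call of the 6 genes beyond this and PSAL in Mix against the mean (0.0492). In the other pairs of groups not every pair of same-numbered libraries correlated above 0.1. Ce with Tm came nearest, with 4 of 5 pairs (0.083 to 0.226) and the best correlation with the own number in 10 of 10 libraries, a hint from the data and not from the design. With at least 4681 counts per gene and library, the spread between libraries limits these comparisons more than depth.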
